A study of Mus musculus with 21 samples.

Results

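The cells described here are mouse embryonic fibroblasts to which a lentivirus had delivered the transcription factor genes Pu.1 (gene symbol Spi1) and Irf4, a set the labels abbreviate PI4. They were chosen by library and depth: every cell of the PI4 day 3 and PI4 day 9 libraries with at least 10000 unique molecular identifiers (UMIs, each standing for 1 captured transcript). This gave 229 cells at day 3 and 166 at day 9, that is 395 of the 1130 PI4 cells, in a series of 25991 cells from 21 libraries. The total UMI count chose the cells, and Irf4, Ccl8 and Isg15 were proposed as their markers with results of these data known. Depth and the levels of these 3 genes are therefore a description, without a test.

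The series set fibroblasts carrying different sets of transcription factors beside unmodified fibroblasts and splenic dendritic cells. PI4 fibroblasts had the genotype Clec9aCre/Cre Rosa26stopflox-tdTomato/tdTomato, in which Cre made from the Clec9a locus switches on the red protein tdTomato, and were sorted as live (DAPI-) and tdTomato+ at 3 or 9 days after viral transduction. The sort keeps only cells in which that Cre had acted. The same genotype, sort and days hold for PIP fibroblasts, which received Prdm1 besides Pu.1 and Irf4, and for PIB fibroblasts, which received Pu.1, Irf8 and Batf3. The 2 libraries of mouse embryonic fibroblasts (MEF) were wildtype, untransduced and sorted as live (DAPI-) only. Genotype, virus, reporter sort and time in culture therefore cannot be told apart from the factors in any comparison with MEF. Each set has 1 library a day, and the labels name no separate cultures, so a p-value here tests a difference against library-to-library spread, part of which may be technical. That spread comes from the MEF pair and from how the day difference varies among the sets, not from replicates of a set. Chi-square per degree of freedom was 2.41 between the MEF libraries. Between the days of PI4, PIP and PIB, which also differ in day, it was 63.9, 322 and 165.

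PU.1 is an ETS family transcription factor needed by myeloid and lymphoid cells, and IRF4 is a member of the interferon regulatory factor family. IRF4 binds most regulatory elements weakly alone and joins PU.1 on composite elements that hold an ETS site next to an interferon-response site. In the spleen IRF4 is prominent in type 2 conventional dendritic cells (cDC2), which take up antigen and present it on MHC class II, while IRF8 and BATF3 are needed by type 1 cells (cDC1). Ccl8 encodes a chemokine that attracts monocytes and lymphocytes, and Isg15 a ubiquitin-like protein induced by type I interferon.

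The deep PI4 cells held 14908146 UMIs at day 3 and 6288482 at day 9, against 39109205 and 47904381 in the MEF libraries. A deep cell had a median of 77369 UMIs and 6870 genes at day 3, and of 25520.5 UMIs and 3870.5 genes at day 9. The cells nearest the threshold had 10493 and 9924 UMIs at day 3 and 10005 and 9908 at day 9. Below it lay 67.8% of day 3 and 60.3% of day 9 PI4 cells, which enter only repeats on all deposited cells and 1 value among the closing observations. The same cut left out 1.36% and 1.77% of PIP cells, 0.283% and 2.44% of PIB cells and 3.03% and 0.579% of MEF cells. Each comparison therefore sets a minority of the PI4 cells against nearly whole libraries. Median UMIs of a deep cell were 57531 and 76078 in PIP, 67382 and 65381 in PIB and 18316 and 25972.5 in MEF. In the deep cells 3 transcripts that mark poor RNA quality (Gm42418, AY036118 and Lars2) took a median of 0.348% of a cell's UMIs at day 3 and 2.45% at day 9, and 0.0600% and 0.0598% in the MEF libraries. The medians were 0.233% and 0.444% in PIP and 0.235% and 0.231% in PIB at the 2 days. The part of RNA quality in any comparison was not tested beyond a repeat on cells with under 1% of these transcripts. In PI4 these were 194 and 49 cells, and values of the repeat are given where they matter. Among the 8 libraries compared, and between PI4 and each other library, no pair shared more than 2 cell barcodes, and 4 deep PI4 cells were called doublets and kept.

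Both delivered genes were present in both PI4 libraries and in neither MEF library, as the labels state. Levels are given in CPM, the UMIs of a gene per 1000000 UMIs of the library's deep cells. Irf4 stood at 10.3 CPM at day 3 and 7.95 at day 9, with 0 UMIs in either MEF library, so it was at least 264-fold higher against a floor of 3 counts over both MEF libraries. Spi1 stood at 12.6 and 10.3 CPM, again with 0 in MEF, and was at least 333-fold higher. Both lay above MEF in 2 of 2 PI4 libraries. Viral and endogenous transcripts of these genes cannot be told apart in the counts. It is not known whether the 3′ libraries count viral transcripts as they count endogenous ones. Irf8 and Batf3, which this set does not carry, were at 0.335 and 0.318 and at 10.3 and 2.23 CPM, so Batf3 was present although not delivered; MEF held it at 0.818 and 0.835. Prdm1, the gene that separates PIP from PI4, stood at 2.15 and 1.59 CPM in PI4, below 9.08 and 9.00 in MEF. In the order of Irf4 levels splenic cDC2 stood first at 30.3 CPM, then PIP at 18.4 and 16.6, splenic pDC at 15.8, PI4 day 3 and PI4 day 9. PI4 day 3 and day 9 did not differ beyond counting error, since the upper exact 95% Poisson limit of day 9 lay above the lower limit of day 3, 8.70 CPM.

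Irf4 UMIs were found in a minority of PI4 cells. At full depth 40.2% of day 3 and 20.5% of day 9 cells had at least 1 Irf4 UMI. After every cell was thinned to 10000 UMIs these shares were 9.17% (95% Clopper-Pearson interval 5.77 to 13.7%) and 4.22% (1.71 to 8.50%), against 23.1% of splenic cDC2. No cell of MEF 1 or MEF 2 had one, which allows upper 95% limits of 0.186% and 0.214%. Spi1 was found in 10.0% and 9.64% of thinned PI4 cells, against 99.6% of cDC2. At full depth 58 of the 229 day 3 cells had UMIs of both factors, 34 of Irf4 alone, 46 of Spi1 alone and 91 of neither. At day 9 the numbers were 17, 17, 21 and 111 of 166. Cells with neither factor's UMIs were shallower, with medians of 39137 and 18365 UMIs, and their median Ccl8 level was 11246 and 15119 CPM. In the cells with UMIs of 1 or both factors, which were deeper, the medians of the 3 classes ran from 13365 to 26122 CPM at day 3 and from 20250 to 30455 at day 9, each above that of the cells with neither. At this depth a cell without a factor UMI is not shown to lack the factor, and the part of depth in these levels was not tested. These intervals cover counting error only, as do all others on counts below.

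**Figure D1:**
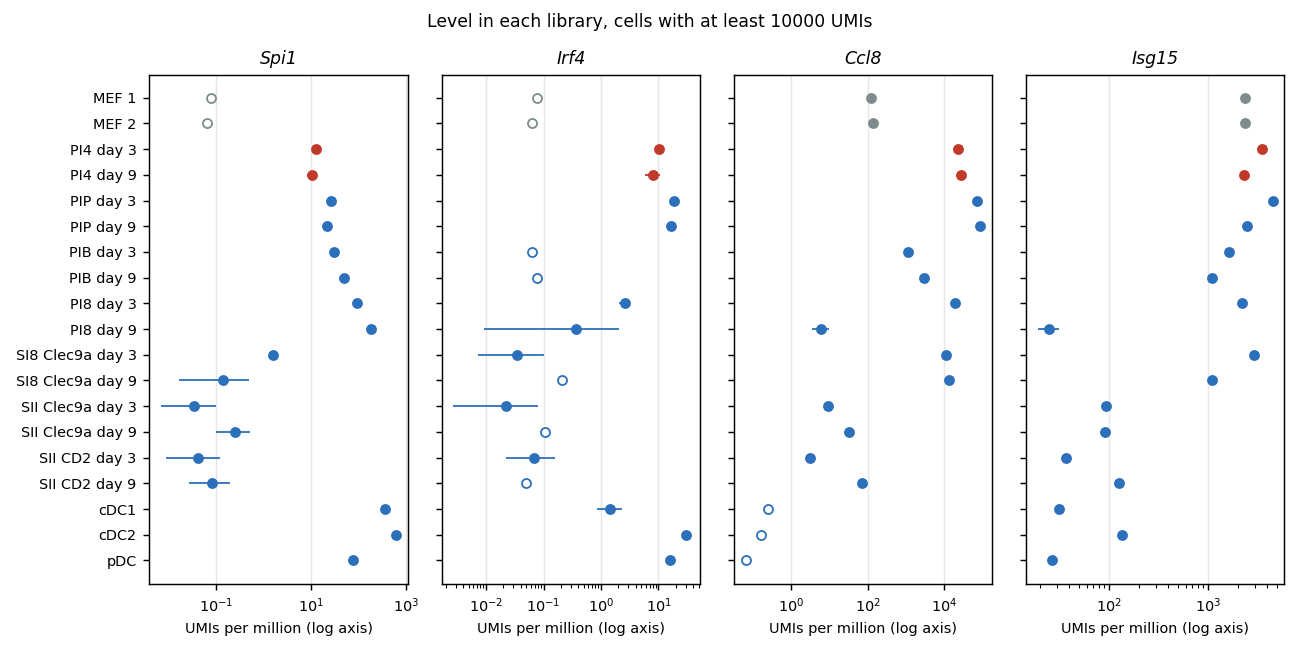
Levels of the delivered and marker genes in each library with at least 50 deep cells, as CPM on a log axis, with exact 95% Poisson intervals as bars (PI4 in red, MEF in grey, other libraries in blue; open circles are 0 UMIs drawn at the 3-count floor). Irf4 lies at 10.3 and 7.95 in PI4 and at 0 in MEF, Ccl8 at 22178 and 26302 against 123 and 135, and the Isg15 values of PI4 lie on both sides of MEF.

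Ccl8 stood at 22178 CPM at PI4 day 3 and 26302 at day 9, against 123 and 135 in the MEF libraries, a log2 difference of 7.67 ± 0.36. The value after ± is a standard error from the fit of 8 libraries, of which 2 are PI4 and 2 MEF. Higher levels were found only in PIP, at 69700.4 and 86861 CPM. Below PI4, fibroblasts with Pu.1 and Irf8 stood at 18717 CPM at day 3 and 5.93 in the library labelled day 9. Those with Spib and Irf8 in the Clec9a line stood at 10673 and 12857. PIB stood at 1105 and 2828, and splenic dendritic cells at 0. High Ccl8 was therefore not particular to the sets with Irf4. Each of the 395 PI4 cells held Ccl8 UMIs, also after thinning, when 26.6% and 27.6% of MEF cells and no cDC2 did. The share of a PI4 cell's UMIs that came from Ccl8 ran from 0.0692% through a median of 1.47% to 12.7% at day 3, and from 0.0462% through 1.80% to 17.8% at day 9. The PI4 libraries hold no other cell type that should lack Ccl8, so the part of free RNA in the lowest cells was not tested.

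The promoters of Ccl8, its neighbour Ccl12, the Fc receptor gene Fcgr2b and Isg15 are shown because 2 of the elements that PU.1, IRF4 and interferon-activated factors are known to bind can be looked for in them. Each line holds the 200 bases before the RefSeq start in the gene's own orientation, 5′ to 3′ (GRCm38.p6, the build of mm10), and capitals mark the composite PU.1 and IRF element (GGAA, any 2 bases, GAAA) or the interferon-response core (GAAA, any 2 bases, GAAA), on either strand. They lie at chr11:82114985-82115184 (Ccl8, plus strand), chr11:82101645-82101844 (Ccl12, plus strand), chr1:170976072-170976271 (Fcgr2b, minus strand) and chr4:156200819-156201018 (Isg15, minus strand).
Ccl8: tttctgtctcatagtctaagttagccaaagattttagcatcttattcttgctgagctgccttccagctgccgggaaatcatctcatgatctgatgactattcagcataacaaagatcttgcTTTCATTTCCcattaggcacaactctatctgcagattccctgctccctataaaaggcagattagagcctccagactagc
Ccl12: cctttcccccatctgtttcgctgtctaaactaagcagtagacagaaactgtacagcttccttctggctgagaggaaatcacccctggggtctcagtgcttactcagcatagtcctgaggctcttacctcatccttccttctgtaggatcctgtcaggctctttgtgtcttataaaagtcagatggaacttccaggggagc
Fcgr2b: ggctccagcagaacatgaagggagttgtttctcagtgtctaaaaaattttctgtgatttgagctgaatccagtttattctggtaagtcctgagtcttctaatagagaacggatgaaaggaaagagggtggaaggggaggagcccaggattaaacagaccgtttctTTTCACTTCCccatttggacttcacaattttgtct
Isg15: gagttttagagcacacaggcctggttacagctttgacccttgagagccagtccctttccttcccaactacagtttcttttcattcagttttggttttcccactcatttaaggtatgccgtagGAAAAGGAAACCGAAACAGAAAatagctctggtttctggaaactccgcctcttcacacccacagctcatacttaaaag
The Ccl8 and Fcgr2b windows each hold 1 composite element, read on the opposite strand, with its first base 79 and 35 bases before the start. The Isg15 window holds 3 overlapping interferon-response cores, at 78, 72 and 66 bases before the start, and the Ccl12 window holds neither motif. Over all 32851 promoters of 300 bases the composite element was present in 2.72% and the interferon core in 3.44%. In promoters of the genes tested these shares were 2.51% and 3.29%. Among genes higher in PI4 than in MEF the composite element was in 2.83%, among those lower in 2.24%. Among those at least 4-fold higher it was in 4.26%, and among those at least 4-fold lower in 2.66%. The interferon core was in 4.83% and 3.94% of these 4-fold sets. The interferon core was in 13 of the 28 matched interferon-response promoters, 46.4%. A match is a stretch of letters and no measured site.

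Over all 15605 genes tested, 7924 (50.8%) were called different between PI4 and MEF by edgeR's quasi-likelihood test at a Benjamini-Hochberg adjusted p under 0.05. Of these 4065 genes (26.0%) rose and 3859 (24.7%) fell, and the median log2 difference over all genes tested was -0.01. A list's count has to be read against those shares. Leaving out MEF 1 or MEF 2 gave 3904 or 4041 calls. The libraries with Pu.1 and Irf8 (PI8) were left out of the fit because the day 9 library of that label stood apart, and adding them gave 1854 calls. With them the lists below also held fewer calls, such as 3 matrix genes lower, 0 interferon genes higher and 9 MHC class I genes higher. The lists below group genes by role, and the plot of called shares shows them together.

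**Figure D2:**
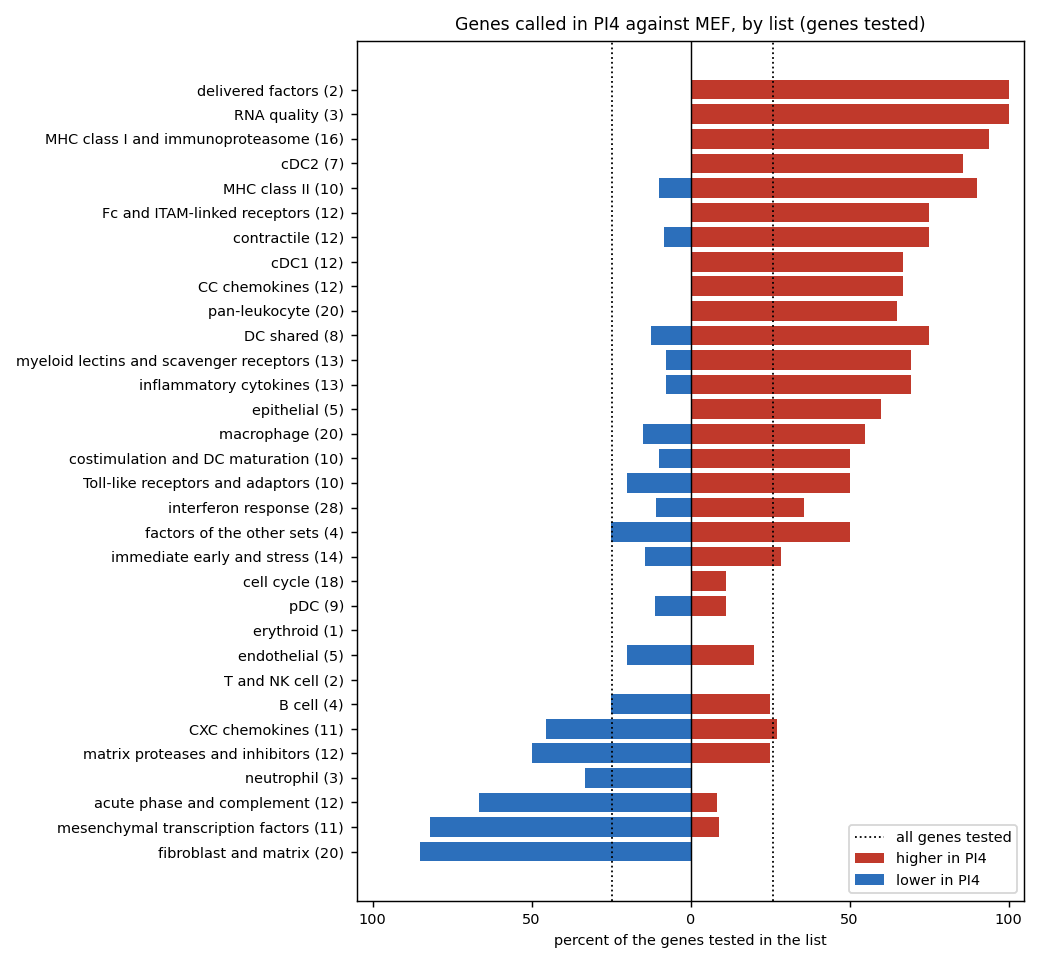
Percent of the tested genes of each list called higher (red, to the right) or lower (blue, to the left) in PI4 than in MEF, with dotted lines at the 26.0% and 24.7% of all genes tested; Irf4, Ccl8 and Isg15 are counted in their lists. Beside the delivered factors and the RNA quality transcripts, all of which rose, the MHC class I and class II lists reach furthest to the right, and the fibroblast and matrix list furthest to the left.

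Chemokines that attract monocytes and T cells rose. Of the 11 CC chemokines tested besides Ccl8, 7 rose and none fell, with a median log2 difference of 1.33. Ccl12, a monocyte attractant encoded next to Ccl8, stood at 156 and 403 CPM against 0.179 and 0.104 in MEF (log2 difference 10.91 ± 0.40, adjusted p = 0.000101). Ccl17, which draws CCR4-bearing T cells and is typical of cDC2, stood at 256 and 563 against 0.895 and 0.793 (8.92 ± 0.18, adjusted p = 4.8e-05). Both lay far above MEF at both days. Ccl22, the other CCR4 ligand, had 5.03 and 37.8 CPM, Ccl11 (eotaxin) 189 and 1107 against 5.47 and 4.82, and Ccl2 3625 and 4268 against 1668 and 1702. Ccl5 did not pass, with 240 CPM at day 3 and 2217 at day 9 on both sides of MEF's 476 and 506, and neither did Ccl7. Ccl6 was called, although its 0.201 and 1.91 CPM lay on both sides of MEF. Since Ccl8 and Ccl12 are close relatives, some of their reads may have been split between them.

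CXC chemokines went the other way more often: 5 of 11 fell and 3 rose, where 24.7% and 26.0% of all genes tested did. Cxcl5, a neutrophil attractant that fibroblasts make, dropped to 58.7 and 78.2 CPM from 7478 and 7543 in MEF (-6.67 ± 0.64, adjusted p = 0.00092). Cxcl12, the stromal factor that retains CXCR4-bearing cells, was at 33.1 and 35.9 against 941 and 941. Cxcl16, a chemokine that also serves as a scavenger receptor, rose to 451 and 633 from 29.6 and 30.6 (4.26 ± 0.23, adjusted p = 0.000213). Cxcl10, an interferon target, did not pass, with 42.5 and 297 CPM against 551 and 491.

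Inflammatory cytokine genes were among the genes absent from MEF. Of 13 tested 9 rose and 1 fell. Il1b, the secreted interleukin of activated myeloid cells, stood at 338 and 349 CPM with 0 UMIs in MEF, at least 9965-fold higher (edgeR adjusted p = 0.00116). After thinning 34.9% and 40.4% of PI4 cells had an Il1b UMI. Tgfb1 rose to 120 and 149 CPM from 27.3 and 29.2, and Ifnb1, which encodes interferon beta, to 22.3 and 71.4 from 0.281 and 0 (adjusted p = 0.00298). Il1rn, the antagonist of the interleukin 1 receptor, fell to 23.5 and 34.2 from 65.5 and 59.8.

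The interferon-response genes moved in both directions. Isg15 itself stood at 3495 CPM at day 3 and 2319.6 at day 9 against 2376 and 2353 in MEF, so the PI4 values lay on both sides of MEF (log2 difference 0.38 ± 0.12 after scaling). PIP day 3 was the highest library at 4510.2 CPM, followed by PI4 day 3. Of the 27 other interferon-response genes tested 9 rose and 3 fell, with a median log2 difference of 0.36. Over all genes tested 26.0% rose and 24.7% fell. The share of the list that rose was therefore not far above that of all genes, and the share that fell was below it. Without the repeat with the PI8 libraries, the number that rose ranged from 3 to 12 over the alternatives. Ifit2, an RNA-binding antiviral protein, rose to 801 and 362 CPM from 53.7 and 44.8 (3.59 ± 0.56, adjusted p = 0.00416), and Usp18, which removes ISG15 from proteins and dampens interferon signalling, to 472 and 345 from 120 and 121 (1.85 ± 0.10, adjusted p = 0.000213). Oas1a, Zbp1 and Xaf1 also rose. Ddx58, which encodes the viral RNA sensor RIG-I, fell to 40.6 and 40.7 from 141 and 136 (-1.66 ± 0.19, adjusted p = 0.00155), and Ifit3 to 387 and 639 from 978 and 1005. Reads of the near-identical Ifit genes may be split among them.

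Leukocyte genes at or near 0 in MEF were present in PI4. Of 20 pan-leukocyte genes tested 13 rose and none fell, with a median log2 difference of 4.86 when genes at 0 in MEF are set at their bound. Cd52, a small surface glycoprotein of leukocytes, stood at 476 and 1187 CPM against 0.0256 and 0 in MEF (15.76 ± 0.49, adjusted p = 8.61e-05). Aif1, an actin-binding protein of macrophages, stood at 306 and 192 with 0 in MEF, at least 7224-fold higher. Ptprc, which encodes the leukocyte phosphatase CD45, reached only 8.99 and 17.8 CPM. After thinning its UMIs were in 5.68% and 7.23% of PI4 cells against 99.9% of cDC2, while Cd52 was in 67.2% and 72.9% of PI4 cells. Rac2, Vav1, Cd48 and Tyrobp stayed under 1 CPM at both days and did not pass.

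Receptors that inhibit or activate myeloid cells rose in most of their list, 9 of 12 with none lower. Fcgr2b, the inhibitory IgG receptor, stood at 55.7 and 92.2 CPM against 0 and 0.0417 (11.54 ± 0.38, adjusted p = 8.61e-05). Lilrb4a and Lilr4b, paired inhibitory receptors so alike that their reads may be split, were at 121 and 256 and at 98.2 and 203 with 0 in MEF. The shared signalling partner Fcer1g did not pass, with 2.01 and 0.954 CPM against 0.409 and 0.543. Tyrobp, the other adaptor of such receptors, was at 0.537 and 0.477. Of 10 genes of the Toll-like receptors and their partners 5 rose and 2 fell. Unc93b1, which carries nucleic acid sensing Toll-like receptors to the endosome, stood at 181 and 112 CPM against 22.8 and 22.9 (2.75 ± 0.15, adjusted p = 0.000239), while Tlr2 fell to 4.96 and 15.4 from 28.2 and 33.5.

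Of 13 myeloid lectins and scavenger receptors 9 rose and 1 fell. Cd36, which takes up oxidised lipids and dying cells, stood at 60.8 and 260 CPM with 0 in MEF, at least 4659-fold higher. Clec12a, an inhibitory lectin of myeloid cells, was at 85.5 and 69.8, and Cd209a, the DC-SIGN lectin of cDC2 and monocyte-derived cells, at 8.12 and 47.4. Colec12 fell, to 49.4 and 93.2 from 172 and 171. Among 20 macrophage genes 11 rose and 3 fell. Timd4, the phosphatidylserine receptor of resident macrophages, stood at 108 and 103 CPM with 0 in MEF, and Marco, a scavenger receptor, at 9.12 and 154. Lyz2 rose to 12.4 and 96.8 from 1.36 and 1.34, and Csf1r, the receptor for macrophage colony stimulating factor, to 13.6 and 16.5 from 0.46 and 0.48. Spp1 fell to 189 and 1232 from 7357 and 7453, and Adgre1, the F4/80 antigen, did not pass at 0.268 and 0.636.

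The dendritic cell genes that rose were not of 1 subset. Besides the delivered Irf4, 6 genes of the cDC2 list could be tested and 5 rose: Cd209a, Itgam, Clec12a, Clec4a2 and Cd300a. Sirpa did not pass, and Clec10a, Mgl2, Esam, Clec4a4 and Cd7 were too low to test. Itgam, the integrin CD11b used to sort splenic cDC2, stood at 39.2 and 40.9 CPM with 0 in MEF. On the cDC1 list 8 of 12 rose, Xcr1 among them at 2.08 and 1.91 CPM; Clec9a, whose locus drives the reporter, had 1 UMI at day 3 and 0 at day 9. Of the genes shared by dendritic cells 6 of 8 rose and 1 fell, Bcl11a, a zinc finger repressor, at 16.5 and 4.29 CPM against 22.3 and 22.4. Those that rose included Itgax, the integrin CD11c, at 54.1 and 25.1 CPM against 0 in MEF, and Id2, an inhibitor of DNA binding needed for conventional dendritic cells, at 231 and 300 against 9.64 and 9.83. Dpp4 rested on day 3 alone, with 4.16 and 0 CPM. Flt3 was too low to test. Of 9 pDC genes 1 rose and 1 fell. Of other cell types' genes, 1 rose and 1 fell among 4 B cell genes, none among 2 T and NK cell genes, none rose and 1 fell among 3 neutrophil genes, and 3 of 5 epithelial genes rose.

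Genes of antigen presentation rose in nearly their whole lists. For MHC class I and the immunoproteasome 15 of 16 rose, none fell and Tapbp did not pass, with a median log2 difference of 1.37. B2m, the light chain of class I, stood at 4389 and 6422 CPM against 2390.1 and 2411 (1.26 ± 0.20, adjusted p = 0.00463), and Psmb9, a catalytic subunit of the immunoproteasome, at 241 and 137 against 42.1 and 40.5. For MHC class II 9 of 10 rose. Cd74, the invariant chain, stood at 1408 and 699 CPM against 16.9 and 17.8 (5.97 ± 0.42, adjusted p = 0.0004). H2-Aa was at 99.9 and 113 against 0.0256 and 0, H2-Ab1 at 73.3 and 96.7 against 0.639 and 0.731, and Ciita, the coactivator that switches the class II genes on, at 4.76 and 2.23 against 0 and 0.0417. The single class II gene that fell was Ifi30, a thiol reductase, at 73.2 and 62 against 95.9 and 99.3. Reads of the near-identical H2 genes may be split among them. Of the 10 costimulation and maturation genes 5 rose and 1, Socs2, fell. Among those that rose were Cd86 at 25.5 and 21 CPM with 0 in MEF and Cd40 at 24.9 and 25.4 against 0.23 and 0.417. Cd80, the other B7 ligand, did not pass at 7.38 and 5.72 against 18.0 and 15.3, and Ccr7, the receptor for migration to lymph nodes, was too low to test.

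**Figure D3:**
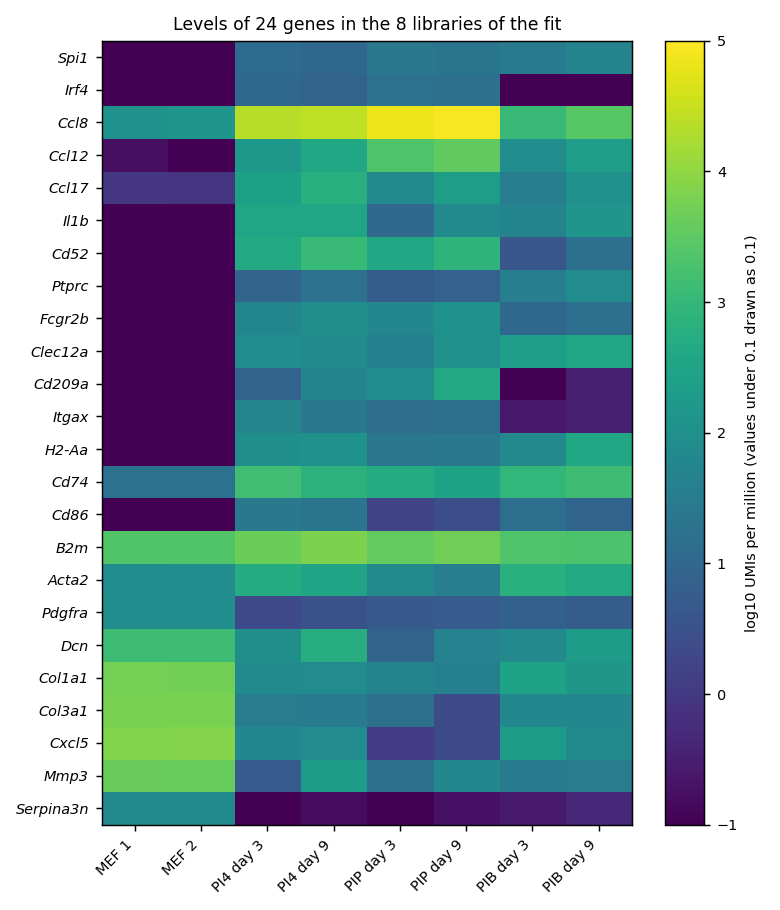
Heat map of log10 CPM for 24 genes (rows) in the 8 libraries of the fit (columns), with values under 0.1 CPM drawn as 0.1. Cd52 and Il1b are at or near 0 in MEF and present in both PI4 columns, and Col1a1 and Col3a1 run from high in MEF to low in PI4.

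Fibroblast matrix genes fell together, and stayed detectable. Of 20 tested 17 fell and none rose, with a median log2 difference of -4.03. Col1a1, the main chain of type I collagen, fell to 69.4 and 77.9 CPM from 5449 and 5409.8 (-6.07 ± 0.35, adjusted p = 0.000254), and Col3a1 to 35.6 and 29.1 from 6113 and 6057. Lum, a small proteoglycan, fell to 3.35 and 16.2 from 660 and 624, and Pdgfra, the fibroblast receptor for platelet-derived growth factor, to 2.08 and 3.02 from 88.2 and 85.2. Dcn, which encodes decorin, was less reduced at 99.3 and 547 against 1362 and 1384. Fn1, fibronectin, did not pass (0.03 ± 0.22) at 693 and 1172, and neither did Thy1 or S100a4. After thinning, Col1a1 UMIs were in 37.6% and 38.6% of PI4 cells, against every MEF cell and no cDC2, and Dcn UMIs in 22.3% and 71.7%, against 90.8% and 89.9% of MEF cells.

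Of 11 mesenchymal transcription factors 9 fell and 1 rose. Meox2, a homeobox factor of mesoderm, fell to 0.134 and 0.159 CPM from 7.11 and 6.30, and Prrx1, a homeobox factor of limb mesenchyme, to 51.3 and 92.7 from 256 and 256. Twist1 fell while Twist2, its close relative, rose to 36.4 and 65.2 from 14.5 and 14.5 (1.87 ± 0.20, adjusted p = 0.00131). Of 12 acute phase and complement genes 8 fell and 1 rose. Serpina3n, a protease inhibitor, was at 0.0671 and 0.159 CPM against 72.4 and 75.2 (-9.35 ± 0.20, adjusted p = 4.8e-05), and C1s1, a complement protease, at 4.23 and 7.16 against 127 and 120. Among matrix proteases and their inhibitors Mmp2 fell to 23.6 and 30.4 from 1071 and 1061, while Plau, the urokinase gene, rose to 38.7 and 37.7 from 2.89 and 2.55.

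Contractile genes differed in another way from the matrix genes, since 9 of 12 rose and 1, Tpm1, fell. Acta2, smooth muscle actin, stood at 513 and 323 CPM against 81.7 and 85.4 (2.39 ± 0.14, adjusted p = 0.00025), and Tagln at 242 and 307 against 150 and 144 (1.05 ± 0.31, adjusted p = 0.0353). In cells with under 1% of the RNA quality transcripts only 2 of the contractile genes were called higher, Acta2 was no longer called (0.96 ± 0.78, adjusted p = 0.344) and Tagln turned to a log2 difference of -0.41. At day 3 a single PI4 cell held 15.6% of the Acta2 UMIs. Cell cycle genes were mostly not called, with 2 of 18 higher, Plk1 and Pcna; Mki67 stood at 2.15 and 0.477 CPM against 0.869 and 0.710.

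Among genes with at least 50 CPM in every library of the higher side, the 12 that rose most included several outside the lists. BC037156, an uncharacterised gene, led with a bound of at least 45819-fold over the MEF floor, ahead of Il1b and of Ms4a6d, a membrane protein of macrophages, at 201 and 494 CPM and at least 10076-fold higher. Slamf7, a signalling receptor of activated leukocytes, stood at 121 and 89.8 CPM, and Ccr2, the monocyte receptor for CCL2, at 58.6 and 173, both with 0 in MEF. Those that fell most were led by Cxcl15 (-9.45 ± 0.77, adjusted p = 0.00115) and by Serpina3n, and held the matrix genes Abi3bp, Col3a1, Col5a3, Aspn and Fbn2, the secreted Wnt antagonist Sfrp2 and the imprinted RNA H19.

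Setting PI4 beside PIP asks what differs when Prdm1, a zinc finger repressor, is delivered as well. Of all genes tested 1778 (11.4%) were called, 946 (6.06%) higher and 832 (5.33%) lower in PI4. With 1 library left out the count ranged from 546 (without MEF 1) to 3364 (without PIB day 3), without the day term it was 629 and with DESeq2 3133. With the PI8 libraries added edgeR called 0 genes (1701 at an unadjusted p under 0.05), so no call against PIP named here was kept in that repeat. Prdm1 was at 85.5 and 66.2 CPM in PIP (-5.44 ± 0.14, adjusted p = 0.00032). Ccl8 was lower in PI4 by 1.80 ± 0.27 on the log2 scale, Irf4 by 1.05 ± 0.17 and Ccl12 by 3.58 ± 0.26. Of the 11 CC chemokines tested besides Ccl8, 5 were higher in PI4 (Ccl2, Ccl5, Ccl7, Ccl9 and Ccl17) and 1, Ccl12, was lower. The lectin Cd209a was at 80.6 and 426 CPM in PIP, above PI4 at both days (-3.35 ± 0.29, adjusted p = 0.00837).

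Contractile, cytokine and CXC chemokine genes were among those higher in PI4 than in PIP. Of 12 contractile genes 8 were higher and none lower, of 13 cytokines 7 higher and none lower, and of 11 CXC chemokines 5 higher and none lower. The median share of RNA quality transcripts was 0.348% and 2.45% in PI4 cells and 0.233% and 0.444% in PIP cells. Its part in these differences was not tested beyond the repeat on cells with under 1% of them, which called 1739 genes. Acta2 was at 72.2 and 36.7 CPM in PIP (2.87 ± 0.14, adjusted p = 0.00125), Fn1 at 71 and 71.8 (3.53 ± 0.24, adjusted p = 0.00285) and Cxcl12 at 4.29 and 4.89 (2.81 ± 0.09, adjusted p = 0.000589). H2-Ab1, at 6.41 and 8.91 CPM in PIP, was higher in PI4 by 3.38 ± 0.40 (adjusted p = 0.00961), and so was Cd86 at 1.73 and 2.73 (3.26 ± 0.38, adjusted p = 0.0139). H2-Aa did not pass, with a difference of 2.05 ± 0.57. None of the 16 MHC class I genes was called in either direction. By the rule of size the genes that led in PI4 were Ptn (pleiotrophin), Ptx3 (a pentraxin) and Hsd17b11 (a steroid dehydrogenase), and those that led in PIP, after Prdm1, Ccl12 and Cd209a, were Ly6c1 and the cathepsin Ctsk.

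PIB differs from PI4 in carrying Irf8 and Batf3 in place of Irf4. Of all genes 1540 (9.87%) were called, 718 (4.60%) higher and 822 (5.27%) lower in PI4; with 1 library left out the count ranged from 358 (without MEF 1) to 2141 (without PIB day 9). The count was 370 without the day term, 872 with thinned cells and 1742 in cells with under 1% RNA quality transcripts. DESeq2 called 2926, and the fit with the PI8 libraries added 2 (1505 at an unadjusted p under 0.05). Of the delivered genes Irf4 was at 0 in both PIB libraries, and Irf8 at 32.8 and 43.0 CPM in PIB (-6.79 ± 0.46, adjusted p = 0.00392). Spi1, which both sets carry, was called lower in PI4, at 12.6 and 10.3 CPM against 30.7 and 49.2 in PIB. The sets were therefore not compared at equal counts of Spi1, and the level of the delivered factor was not measured apart from them. Batf3 stood at 5.004 and 2.33 CPM in PIB, against 10.3 and 2.23 in PI4, which does not carry it (0.78 ± 0.47, adjusted p = 0.322), so its level does not separate the labelled sets. Of the interferon genes besides Isg15, 17 of 27 were higher in PI4 and none lower, with 5 to 19 higher over the alternatives other than the PI8 repeat. Isg15 was at 1643 and 1112 CPM in PIB, below PI4 at the same day, and Usp18 was higher in PI4 by 1.26 ± 0.10 (adjusted p = 0.00513). Ifnb1 was at 3.72 and 1.42 CPM in PIB against 22.3 and 71.4 (4.21 ± 0.89, adjusted p = 0.0434). MHC class I genes were higher in PI4 in 10 of 16 and lower in none, with B2m higher by 1.38 ± 0.21 (adjusted p = 0.0193).

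The leukocyte genes that separated PI4 from PIB included markers of both dendritic cell subsets. Itgax was higher in PI4 by 7.10 ± 0.42 (adjusted p = 0.00521) and Cd52 by 6.58 ± 0.29 (adjusted p = 0.00171), with 4.12 and 15.9 CPM in PIB. Cd209a was at 0 and 0.336 in PIB. Of the 6 cDC2 genes tested besides Irf4, Cd209a was the 1 called, and none was lower in PI4. Xcr1, the chemokine receptor that marks cDC1, was lower in PI4 (-6.33 ± 0.26, adjusted p = 0.00151), with 156 and 189 CPM in PIB. The cDC1 list did not go 1 way. Of its 12 genes tested 4 were lower in PI4, the delivered Irf8 among them, and 2, Wdfy4 and Cd8a, were higher. Ptprc was also lower in PI4, by 2.03 ± 0.22, and so was Arg1 (-6.45 ± 0.45, adjusted p = 0.0068), the arginine-degrading enzyme. Of the 20 matrix genes 9 were lower in PI4 and none higher, with Col1a2 at 349 and 191 CPM against 1673 and 1919 in PIB (-2.69 ± 0.26, adjusted p = 0.0078). MHC class II genes were called in 1 of 10, which was lower in PI4.

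The deep PI4 cells were also compared one by one. Fibroblast matrix genes took a median of 0.283% of a cell's UMIs at day 3 and 0.370% at day 9, against 2.91% and 2.87% in the MEF libraries. Interferon genes took 1.28% and 0.955%, on both sides of 0.980% and 0.979% in MEF, and pan-leukocyte genes 0.120% and 0.119%, against 0.0208% and 0.0216%. MHC class II genes took a median of 0.0726% and 0.0196%, against 0.0107% and 0.0112% in MEF. At day 9 the upper quartile of the class II share was 0.0413% and the highest cell had 2.18%, beside a summed class II level of 1189.6 CPM against 127 and 132 in MEF. After thinning, 228 of the 229 cells at day 3 and 164 of the 166 at day 9 held UMIs of both a matrix gene and a pan-leukocyte gene. Cd44 was left out of the pan-leukocyte list for this count. Both were also held by 1571 of the 1983 MEF 1 cells, in which the leukocyte list gene Arhgdib stood at 215 CPM. Cd74 UMIs were in 81.7% of thinned cells at day 3 and 34.3% at day 9, against 12.8% in MEF 1, and Itgax UMIs in 25.3% and 7.83%.

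**Figure D4:**
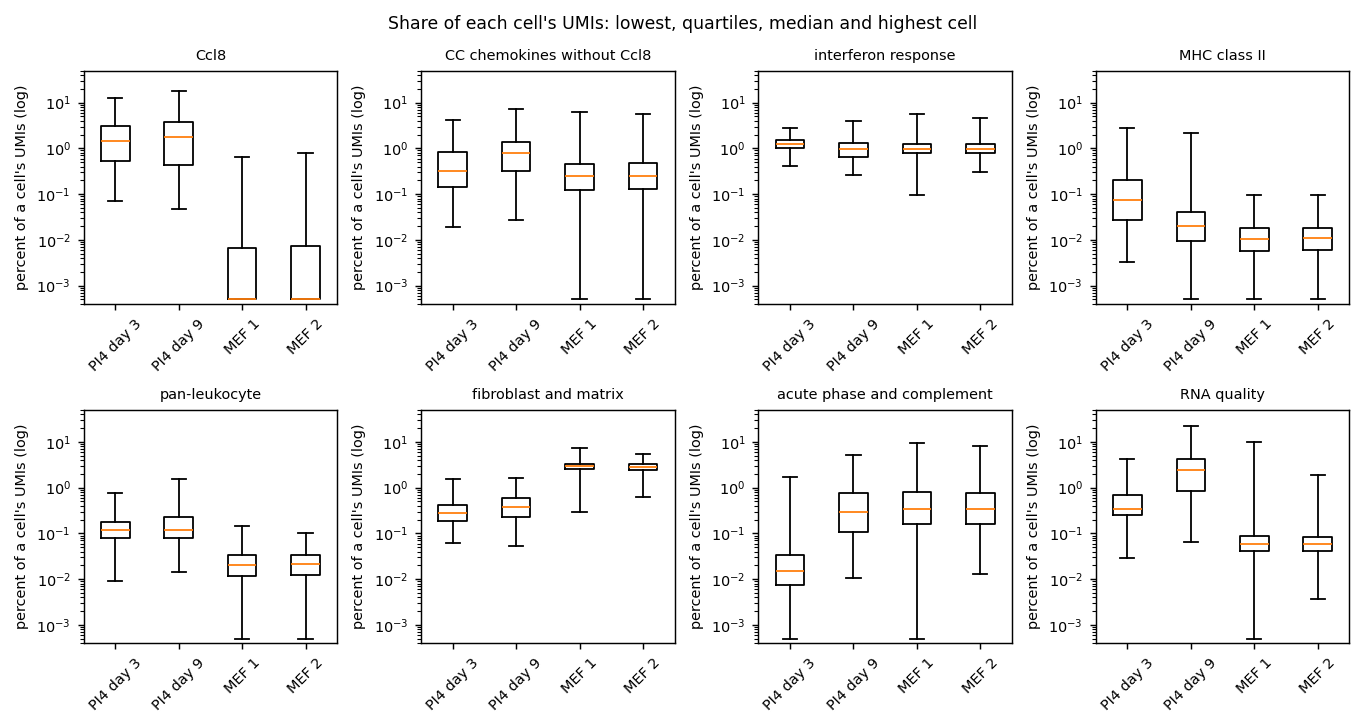
Percent of each cell's UMIs taken by 8 genes or lists, on a log axis, as boxes with the lowest cell, quartiles and highest cell of PI4 day 3, PI4 day 9, MEF 1 and MEF 2 (values under 0.0005% drawn there). Ccl8 medians of 1.47% and 1.80% and matrix medians of 0.283% and 0.370% lie apart from the MEF medians.

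The shares of different lists were also correlated over the cells of each library. The Spearman correlation of Ccl8 with the pan-leukocyte share was 0.0189 over the 229 cells of day 3 and 0.491 over the 166 cells of day 9, and that of Ccl8 with the interferon share was -0.13 and -0.435. The share of RNA quality transcripts fell with a cell's depth, with correlations of -0.587 and -0.721. Cells of a library share its preparation, free RNA and range of depths, so these values are descriptions.

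Within PI4, day 9 and day 3 are 1 library each and have no replicate check. Of the 2893 genes at 50 CPM or more in the higher library, 130 (4.49%) were at least 2-fold higher and 101 (3.49%) at least 2-fold lower at day 9. Wfdc17, a secreted inhibitor-like protein of macrophages, went from 3.35 to 469 CPM, a ratio of 140, with UMIs in 110 of 166 cells. S100a8, a calcium-binding protein of myeloid cells, went from 2.08 to 269 with UMIs in 117 cells, Nts, the neurotensin gene, from 5.57 to 550 with UMIs in 53 cells, and the protease gene Mmp3 from 5.37 to 201 with UMIs in 108 cells. For Uts2b, Dkk2, Cck and Cxcl13 the day 9 level came mostly from 1 cell, which held 76.9%, 75%, 56.6% and 64.9% of the UMIs. Among those lower at day 9, Eno3, a muscle enolase, went from 444 to 38.6 CPM, Nppc, a natriuretic peptide gene, from 438 to 43.3, and Coro1a, an actin-binding protein of leukocytes, from 54.8 to 7.79.

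The acute phase and complement genes were higher in sum at day 9. Together they stood at 468 CPM at day 3 and 6317 at day 9, against 6412 and 6203 in MEF. Saa3, a serum amyloid protein, went from 164 to 4045 and Lcn2, an iron-scavenging lipocalin, from 93.5 to 1820. Saa3 UMIs were in 23.1% of thinned cells at day 3 and 95.8% at day 9. The MHC class II sum went the other way, from 1899.8 to 1189.6 CPM. The sum of the RNA quality transcripts went from 4321 to 18032 CPM beside these values, and its part in them was not tested.

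**Figure D5:**
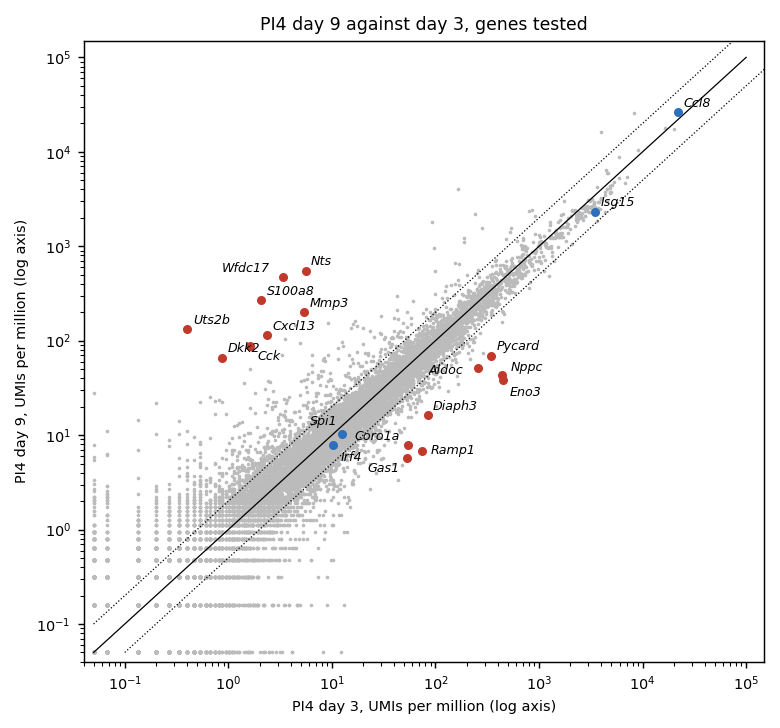
PI4 day 9 against PI4 day 3 levels of each gene, as CPM on log axes, with a solid line of equality and dotted lines at 2-fold (values under 0.05 drawn there). The 16 genes with the largest ratios are red, Saa3 and Lcn2 not among them, and the blue points of Ccl8, Isg15, Irf4 and Spi1 lie close to equality.

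The day term over PI4, PIP and PIB tests the mean difference between days over the 3 sets, and a call does not require it in each. It called 825 genes (5.29%), 431 (2.76%) higher and 394 (2.52%) lower at day 9, with counts from 22 (without either MEF library) to 1514 (without PIB day 3) when 1 library was left out. DESeq2 called 2514, thinned cells gave 440 and the fit with PI8 added called 0 (1763 at an unadjusted p under 0.05), so no day call named here was kept in that repeat. Of the interferon genes besides Isg15, 6 of 27 fell and none rose. Isg15 was lower at day 9 in each set, by 0.76 ± 0.10 on the log2 scale over them, and Irf7, the interferon-induced regulatory factor, fell by 1.35 ± 0.21 (adjusted p = 0.0347). In PI4 Irf7 stood at 396 and 240 CPM. Cd36 rose by 2.34 ± 0.15 (adjusted p = 0.0164), Lyz2 by 3.07 ± 0.21 (adjusted p = 0.0131) and Marco by 4.82 ± 0.35 (adjusted p = 0.019), and 4 of 13 lectins and scavenger receptors rose with none lower. Of the 11 CC chemokines besides Ccl8, 4 rose, Ccl5 by 2.54 ± 0.23 (adjusted p = 0.0185), and none fell. The day difference was 0.55 ± 0.22 for Ccl8 and -0.31 ± 0.16 for Irf4.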

How the data were processed

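Single-cell RNA-seq libraries (10x Chromium 3′, version 3.1) were made from sorted cells, and the authors deposited raw UMI counts, 24455 genes by 25991 cells, made with Cell Ranger 6.0.1 and Seurat against mm10 per the submitters' processing notes; other settings are not given in the sources used here. The smallest deposited cell has 2501 UMIs. All columns belong to 1 of the 21 libraries by their prefix. The members and the gene lists were chosen with earlier results of these data known, so that session's patterns are no independent support.

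Counts were summed per library over cells with at least 10000 UMIs. Libraries with under 50 such cells, both of the Spib and Irf8 set in the hCD2 line, gave no level. edgeR 4.0.16 (R 4.3.3) fitted the 8 libraries of MEF, PI4, PIP and PIB with set and day as terms, TMM scaling, filterByExpr and glmQLFTest (two-sided, Benjamini-Hochberg over 15605 genes, called at an adjusted p under 0.05), on 3 residual degrees of freedom and a median prior of 2.73. Values after ± are standard errors, taken as the size of the log2 difference divided by the square root of its F statistic. They rest on the spread over all libraries of the fit, not on the 2 groups compared alone. Each set has 1 library a day, so a call concerns the mean difference over the days and does not require it at each. In simulated counts the PI4 to MEF test found 72% of 2-fold and all 4-fold changes and called 0.053% of unchanged genes. Only 100 genes were changed at each fold, all above a minimum mean level. The counts were drawn from a common profile with the spread estimated in the fit itself. The simulation therefore cannot check that spread or data in which 50.8% of genes are called. Doublets were called with Scrublet (scanpy 1.11.5) in 97 of 9832 cells of the 10 libraries run and kept. Thinning drew 10000 UMIs from each cell. Bounds set a gene with 0 UMIs in a group at 3 counts over that group.

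The named genes were Irf4, Ccl8, Isg15 and Spi1, up to 5 called members of each list in each direction, the 12 largest called differences in each direction from MEF with at least 50 CPM (UMIs per 1000000) in every library of the higher side, the 8 largest in each direction from PIP, from PIB and between days, and the 8 largest ratios between the PI4 days; list members are also given where not called. Alternatives were DESeq2 1.42.0, RLE scaling, no filter on low counts, all deposited cells, at least 20000 UMIs, thinned cells, no doublets, PI8 added, PI4 and MEF alone, no day term, each library left out, and cells with under 1% RNA quality transcripts, the last chosen after seeing the data. Promoters are RefSeq's (GRCm38.p6, 250 bases before to 50 after the start), and 11708 of the tested genes were matched.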

Additional observations from a re-analysis of the deposited data

Results flagged for a closer look

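S100a8 was at 2.08 CPM at PI4 day 3 and 269 at PI4 day 9, a ratio of 129.2, while in PIB it was at 26.7 and 13.0, a ratio of 0.489. The days differed in opposite directions in these sets, with 1 library each, and the difference between the sets was not tested.

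The PI4 cells under 10000 UMIs, which enter only the repeats on all deposited cells, held a high share of the transcripts that mark poor RNA quality. Gm42418, AY036118 and Lars2 together took 7.125% of the UMIs of these cells at day 3 and 10.06% at day 9, against 0.128% and 0.0956% in the MEF cells under the same depth.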

How the results depend on the processing

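No paired analysis was possible because only the MEF libraries carry replicate numbers; the sets with virus share days, which the fit holds as a term. The direction of every value for named genes was kept under the alternatives except for 2. Tagln, PI4 against MEF, was at -0.41 in cells with under 1% RNA quality transcripts. Dpp4, PI4 against MEF, was at -2.05 without the PI4 day 3 library, and ranged up to 9.19 when another single library was left out. Of the named PI4 to MEF values 2478 of 2742 kept their call. Adding PI8 gave 1854 calls for PI4 against MEF, 0 against PIP (1701 at an unadjusted edgeR p under 0.05; DESeq2 gave 3133 without PI8), 2 against PIB and 0 for the day term (1763 unadjusted). DESeq2 gave 3133, 2926 and 2514 for PIP, PIB and day. Without the day term PIP gave 629 calls, of which 63.6% were higher in PI4 against 53.2% with it, and PIB 370. Thinned cells gave 872 for PIB and 440 for day. Leaving out 1 library gave from 3904 to 8870 calls for MEF, from 546 to 3364 for PIP, from 358 to 2141 for PIB and from 22 to 1514 for day; the lowest values came without a MEF library. The cause of these moves was not tested. Between the PI4 days 231 genes were 2-fold apart, 223 with all deposited cells and 252 by the mean over cells. Irf4 and Spi1 UMIs were missing from many PI4 cells at 10000 UMIs, and the part of depth in this was not tested.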

Other observations

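A group of genes typical of mesothelium, the lining of body cavities, was found together in few PI4 cells. The group (Wt1, Upk1b, Krt7, Gata6, Krt8 and Krt18) was chosen after its values were seen, so its numbers are a description. UMIs of at least 4 of the 6 genes were found in 10 of the 229 deep cells at PI4 day 3, which is 4.37%, and in 1 of 166 at day 9. In each other library with at least 50 deep cells the share was at most 0.748%, and no MEF cell qualified. The 10 cells held 73.1% of the UMIs of these genes at PI4 day 3, so the day 3 levels of Krt8 (9.79 CPM) and Krt18 (43.5 CPM) came largely from them.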
